A study of Homo sapiens with 6 samples.

Results

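The replication-dependent genes for histones H3, H4 and H1 were described in LN-229, a human glioblastoma cell line in long use. They were taken as the protein-coding genes whose current symbol is H3C or H4C followed by a number, or one of H1-1 to H1-5. The rule found 33 genes among the 58174 of each deposited table, namely 13 for H3, 15 for H4 and 5 for H1. The study compared 3 libraries labelled control-NC with 3 labelled sh-JMJD1C. By its usual reading, the second label is a short hairpin RNA against JMJD1C, which encodes a Jumonji-domain protein of the KDM3 family of histone demethylases. All 6 libraries held total RNA from a nucleus-enriched preparation after ribosomal RNA had been depleted. The hairpin's sequence, the time after its delivery and whether clones were picked were not stated. Nothing in the labels tells whether replicate libraries were grown as separate cultures, so the p-values measure only the spread between these libraries, which may be technical.

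H3 and H4 pair into the tetramer at the centre of each nucleosome, and H1 binds the linker DNA where it enters and leaves the particle. Dividing cells make these proteins mainly in S phase, from many intronless gene copies gathered in clusters. The mRNAs of these genes normally end in a conserved stem-loop instead of a poly(A) tail. The stem-loop is bound by SLBP and cut by the machinery that contains the U7 snRNP, so these mRNAs are recovered by total RNA sequencing and largely missed by poly(A) selection. Replacement variants such as those of H3-3A and H3-3B are encoded elsewhere and are made outside S phase too.

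JMJD1C itself, measured as FPKM scaled between libraries, was at 3.97, 2.25 and 4.28 in control 1 to 3, against 1.03, 0.251 and 0.657 in sh-JMJD1C 1 to 3. The groups did not overlap, and the exact two-sided permutation test gave p = 0.10, the smallest that 3 against 3 libraries allow. Its log2 change was -1.82 (SE 0.41) with an adjusted p of 0.118 in limma on log2 FPKM, and -2.49 (SE 0.51) with an adjusted p of 0.0253 in limma-voom on recovered reads.

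The libraries were shallow, with 544442 to 2960454 reads on genes in the controls against 1660561 to 1919675 in sh-JMJD1C, and control 1 was the smallest. They also differed in which RNAs filled them. The 7SL RNA genes (RN7SL) took 0.378, 0.590 and 1.77% of the reads of control 1 to 3, against 1.18, 15.7 and 18.5% of those of sh-JMJD1C 1 to 3, and 1 noncoding gene, ENSG00000281181, took 25.0% of control 1. The nuclear RNA MALAT1 took 1.25 to 2.40% of the control reads and 0.0915 to 0.292% of the sh-JMJD1C reads. Of the glioblastoma and mesenchymal markers, VIM was at 715 and 793 scaled RPM in the group means and CD44 at 258 and 280, while EGFR was at 1160, 1150 and 1090 in control 1 to 3 against 753, 298 and 268 in sh-JMJD1C 1 to 3 (log2 change -1.54, SE 0.45, adjusted p = 0.0587, limma-voom). Summed, these 8 markers were at 2080 to 2220 scaled RPM in controls and 1190 to 2170 in sh-JMJD1C, and CHI3L1 was at 0 in every library. Summed markers of neurons, oligodendrocytes, astrocytes, immune, endothelial and epithelial cells reached 44.8 scaled RPM at most.

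All 3 families were higher in every sh-JMJD1C library than in any control. Together they took 0.132, 0.183 and 0.153% of the reads in control 1 to 3, against 0.677, 2.23 and 1.80% in sh-JMJD1C 1 to 3. Levels are given below as scaled RPM, the reads recovered from the FPKM relative to the library total (RPM) after scaling that aligns the median gene. The H3 genes summed to 260, 331 and 242 scaled RPM in control 1 to 3, against 2128, 10740 and 5657 in sh-JMJD1C 1 to 3, and the means differed 22.2-fold. The H4 genes summed to 397, 409 and 407 against 1652, 8296 and 6482, or 13.5-fold. The H1 genes summed to 870, 748 and 456 against 2667, 10290 and 8906, or 10.5-fold. In each family sh-JMJD1C 1 was the lowest and sh-JMJD1C 2 the highest of the 3. Library sh-JMJD1C 1 had 7.66 times the control mean for H3, 4.09 times for H4 and 3.86 times for H1. Its RN7SL share lay inside the control range, and its MALAT1 share of 0.292% lay below it. Mitochondrial genes took 12.6% of its reads, against 2.93 to 8.70% in controls and 1.33 and 1.70% in sh-JMJD1C 2 and 3. All 23 genes with at least 60 reads were above every control in it, against 31.1% of all genes with that many reads. Of the 23, 4 had fewer than 30 control reads and reached 60 through the sh-JMJD1C libraries. The part of the 7SL, MALAT1 and mitochondrial shares in the size of the difference was not tested. In bulk RNA, more cells in S phase and more histone RNA per cell cannot be told apart. How far nuclei were enriched in each library was not tested either.

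**Figure D1:**
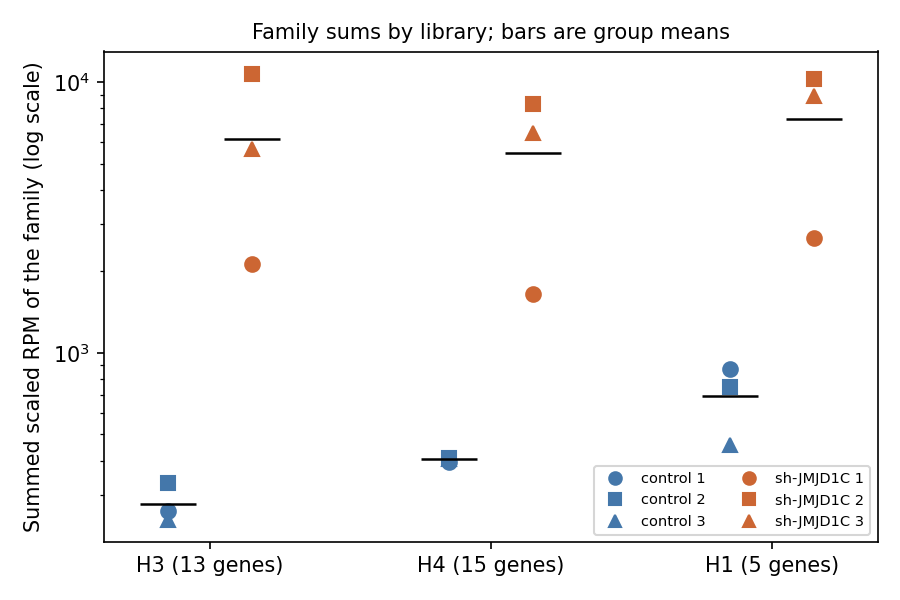
Summed level of each histone family (scaled RPM, log axis) in the 3 control and 3 sh-JMJD1C libraries, with bars at the group means. The lowest sh-JMJD1C library lies 6.42 times above the highest control for H3, 4.04 times for H4 and 3.07 times for H1.

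Whether single genes passed a test depended on the test. In limma on log2 FPKM, 26 of the 33 genes had a mean FPKM of at least 0.5 and were tested, and 0 passed an adjusted p of 0.05, against 0.185% of all 18383 genes. Without sh-JMJD1C 1, 23 of 27 tested genes passed in the same fit, against 2.81% of all genes higher, and 0 passed without any other single library. Of the 26, 24 had an unadjusted p under 0.05, all of them higher, against 9.82% of all genes higher at that p, and the smallest adjusted p was 0.0608, for H3C1. The median log2 change was 4.0 over the tested H3 genes, 3.79 over H4 and 3.12 over H1, beside -0.16 over all genes. When limma was run on protein-coding genes only, 22 of the 26 passed, all higher, against 5.34% of the genes tested.

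In limma-voom on the recovered reads, 23 members had at least 60 reads, and 19 of them rose, against 3.71% of all 11877 genes that rose. None fell, against 1.81% of all genes, and all 23 were higher at an unadjusted p under 0.05, against 16.3% of all genes. By family, the 19 comprised 6 of 8 for H3, 8 of 10 for H4 and 5 of 5 for H1. Median log2 changes were 4.30 for H3, 3.78 for H4 and 3.16 for H1 (19.7, 13.7 and 8.91-fold), beside -0.08 over all genes. The filters count reads of both groups, so a gene silent in controls could pass through the sh-JMJD1C libraries alone. In the FPKM fit this was so for H3C14. In the reads fit H3C13, H3C15, H4C11 and H4C12, with 20, 15, 7 and 6 control reads, had fewer than the 30 that the filter's mean implies for 3 controls, and without them the median was 4.08 for H3 and 3.56 for H4. Histone transcripts are short, and with the trend of the change over gene length removed, 17 members rose (6, 7 and 4 by family, against 2.34% of all genes) with medians of 3.39, 2.96 and 2.25.

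The number that rose on reads moved with single libraries. It was 15 without control 1, 19 without control 2 and 9 without control 3, where 0.307, 5.25 and 0.254% of all genes rose. It was 23 without sh-JMJD1C 1, 11 without sh-JMJD1C 2 and 15 without sh-JMJD1C 3, where 14.5, 0.245 and 0.697% of all genes rose. Without control 1 and sh-JMJD1C 1 together it was 23, against 7.39% of all genes. The 8 genes that passed in each of these 6 fits were H3C2, H3C3, H3C7, H3C8, H3C10, H4C8, H1-1 and H1-5. Levels of all 23 genes tested on reads did not overlap between the groups and were higher in sh-JMJD1C, against 17.3% of all genes tested on reads. For the 4 with fewer than 30 control reads the filter itself favoured a higher level in sh-JMJD1C, which leaves 19 genes. Of the 10 genes with fewer reads, only H4C15 was so, with 7 reads.

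**Figure D2:**
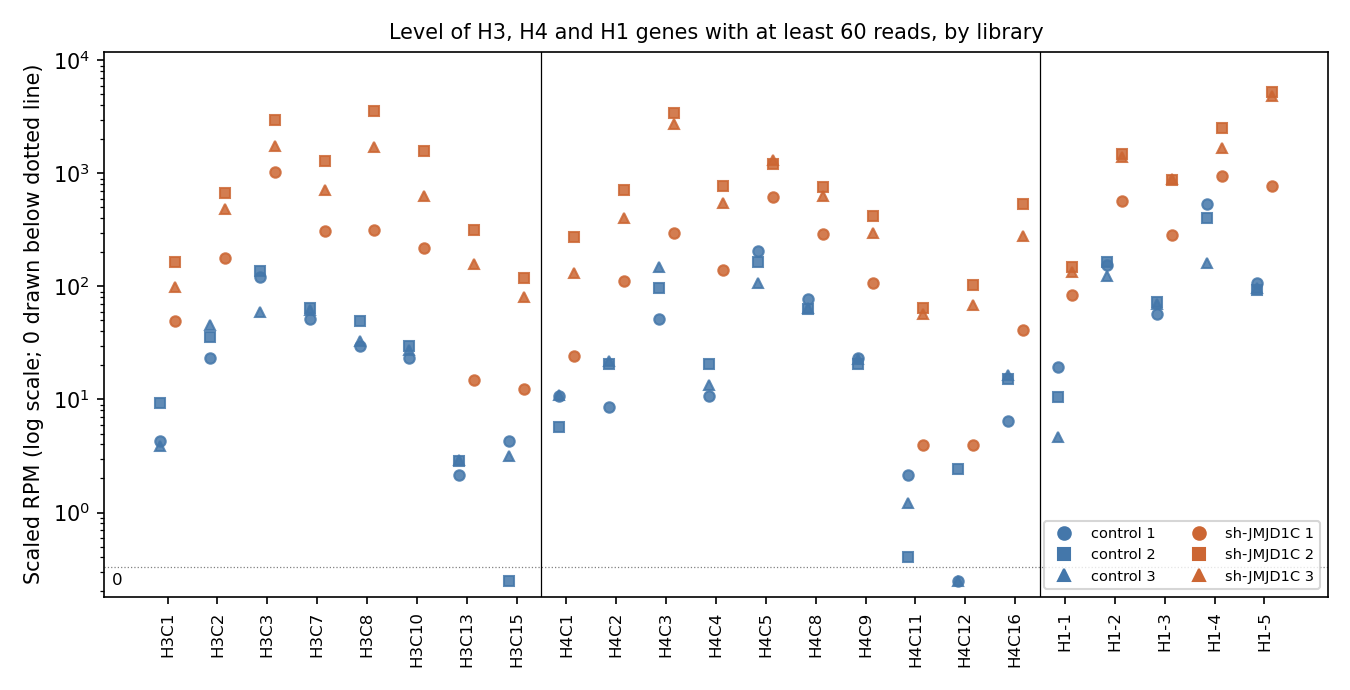
Scaled RPM (log axis, 0 drawn below the dotted line) in each library of the 23 genes with at least 60 reads, with controls in blue and sh-JMJD1C in orange. In all 23 the lowest sh-JMJD1C point is sh-JMJD1C 1, and it lies above every control.

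Among the H3 genes, which all encode the S-phase forms of the core histone, H3C3 was the most abundant in controls and H3C8 changed most among those that passed. H3C3 was at 122, 136 and 59.4 scaled RPM in control 1 to 3, against 1031, 2971 and 1753 in sh-JMJD1C 1 to 3, a log2 change of 4.16 (SE 0.49, adjusted p = 0.00338, limma-voom). H3C8 was at 29.9, 49.2 and 33.0 and at 313, 3605 and 1717 (5.05, SE 0.72, adjusted p = 0.00773, limma-voom). Groups were far apart for both genes, and sh-JMJD1C 2 was the highest library. H3C7 was at 51.2, 65.1 and 62.1 against 307, 1291 and 714 (log2 change 3.44, SE 0.50). For H3C10 the values were 23.5, 29.7 and 27.4 against 217, 1575 and 636 (4.45, SE 0.62). H3C2 stood at 23.5, 35.4 and 45.7 against 180, 676 and 485 (3.42, SE 0.51). Groups did not overlap for these 3 genes, with adjusted p of 0.00775, 0.00728 and 0.00954 in limma-voom. H3C1 was lower, at 4.27, 9.35 and 3.91 against 49.4, 163 and 99.7 (4.0, SE 0.62, adjusted p = 0.0103, limma-voom).

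H3C13 and H3C15, both in the chromosome 1 cluster, missed the threshold, with estimates near that of H3C8 and larger SEs. H3C13 was at 2.13, 2.85 and 2.93 in the controls against 14.8, 316 and 157 (log2 change 4.87, SE 1.32, adjusted p = 0.0518, limma-voom). H3C15 was at 4.27, 0 and 3.18 against 12.5, 118 and 80.8 (5.08, SE 1.42, adjusted p = 0.0547, limma-voom). The groups did not overlap for either gene, but sh-JMJD1C 1 was far below its 2 companions.

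The other H3 genes had few reads. H3C6 had 16 reads over the 3 controls and 33 over the 3 sh-JMJD1C libraries, with overlapping groups. Ratios of summed reads given here are divided by the ratio of the groups' scaled library sizes, so they differ from the plain quotient. H3C14 had 1 and 30 reads, and its scaled ratio of 45.4 had a counting interval of 7.54 to 1850. H3C12 was the only detected gene with fewer reads in sh-JMJD1C, 12 against 5, a scaled ratio of 0.63 with a 95% counting interval of 0.174 to 1.92 that includes no difference. H3C4 and H3C11 were at 0 in all libraries, where a count of 0 allows up to 1.01 to 5.51 RPM, depending on the library. All 411 bases of H3C4 lie within a second protein-coding gene on the same strand, ENSG00000282988, which had 86 reads.

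Nearly all H4 genes encode the same protein, and their levels spanned a wide range. In controls H4C5 had the highest mean, with 207, 164 and 106 scaled RPM, and it reached 623, 1213 and 1322 in sh-JMJD1C 1 to 3 (log2 change 2.72, SE 0.43, adjusted p = 0.0106, limma-voom), the smallest change of any H4 gene tested on reads. H4C3 went from 51.2, 96.8 and 148 to 300, 3433 and 2733 (3.91, SE 0.76, adjusted p = 0.0222, limma-voom). H4C3 therefore held the highest H4 level in sh-JMJD1C 2 and 3, while H4C5 held it in sh-JMJD1C 1 and in control 1 and 2. H4C4 was at 10.7, 20.7 and 13.4 against 140, 780 and 549 (4.64, SE 0.64, adjusted p = 0.00701, limma-voom), the largest change among the H4 genes that passed. H4C8, the other abundant control transcript, was at 76.8, 63.0 and 64.8 against 294, 761 and 635 (2.96, SE 0.42). H4C9 was at 23.5, 20.7 and 22.7 against 108, 421 and 294 (3.41, SE 0.52). H4C8 and H4C9 had the narrowest control ranges of the family relative to their level.

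H4C2 was at 8.53, 20.7 and 22.0 against 112, 708 and 400 scaled RPM (log2 change 4.05, SE 0.66). H4C16, which lies alone on chromosome 12, was at 6.40, 15.04 and 16.6 against 40.9, 536 and 280 (3.66, SE 0.86). H4C1 was at 10.7, 5.69 and 11 against 24.4, 276 and 132 (3.47, SE 0.86). Groups did not overlap for these 3 genes, although sh-JMJD1C 1 came within a few fold of the controls. Their adjusted p in limma-voom was 0.0122, 0.0379 and 0.0411, and H4C1 no longer passed with the length trend removed (adjusted p = 0.0741).

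H4C11 and H4C12 did not pass. H4C11 was at 2.13, 0.407 and 1.22 in the controls against 3.97, 64.4 and 57.6 (log2 change 4.31, SE 1.54, adjusted p = 0.0949, limma-voom). H4C12 was at 0, 2.44 and 0 against 3.97, 103 and 68.8 (5.81, SE 2.18, adjusted p = 0.105, limma-voom). Both were near the floor in sh-JMJD1C 1 and well above it in sh-JMJD1C 2 and 3. H4C14 had 3 control reads and 16 in sh-JMJD1C, a scaled ratio of 8.06 with a counting interval of 2.31 to 43.2. H4C15 had 0 and 7 reads, a scaled ratio of 3.53 when the controls are set to 3 counts over the group. The lower end of its counting interval was 2.18. H4C13 had 0 and 1 reads. H4C6 and H4C7 were at 0 in all libraries.

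Linker histone H1 changed least by its median, yet it held both the smallest change among the genes that passed and one of the largest. H1-4 was the most abundant in controls, at 533, 407 and 161 scaled RPM against 949, 2534 and 1668 in sh-JMJD1C 1 to 3 (log2 change 2.25, SE 0.52, adjusted p = 0.0353, limma-voom). With the length trend removed its adjusted p in limma-voom was 0.0852. H1-5 was at 107, 93.9 and 96.3 against 778, 5244 and 4799 (4.79, SE 0.61, adjusted p = 0.00452, limma-voom), the highest level of any of the 33 genes in sh-JMJD1C 2 and 3. H1-2 was at 154, 164 and 123 against 574, 1492 and 1412 (2.87, SE 0.43). H1-3 was at 57.6, 72.4 and 70.4 against 283, 868 and 891 (3.16, SE 0.47). These 2 genes had the same adjusted p of 0.00954 in limma-voom, and their groups were well apart. H1-1, the least abundant H1 transcript here, was at 19.2, 10.6 and 4.64 against 83.5, 147 and 136 (3.94, SE 0.51, adjusted p = 0.00456, limma-voom).

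The make-up of the H1 family therefore differed between the groups. H1-5 supplied 12.3, 12.6 and 21.1% of the H1 reads in control 1 to 3, against 29.2, 51.0 and 53.9% in sh-JMJD1C 1 to 3, with no overlap. H1-4 supplied 61.3, 54.5 and 35.4% in the controls against 35.6, 24.6 and 18.7% in sh-JMJD1C, and control 3 lay just below sh-JMJD1C 1. The ratio of H1-5 to H1-4 reads was 0.20, 0.231 and 0.598 in the controls against 0.819, 2.07 and 2.88 in sh-JMJD1C. This pair was chosen after its values were seen, and its exact two-sided permutation p was 0.10, the smallest the design allows.

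**Figure D3:**
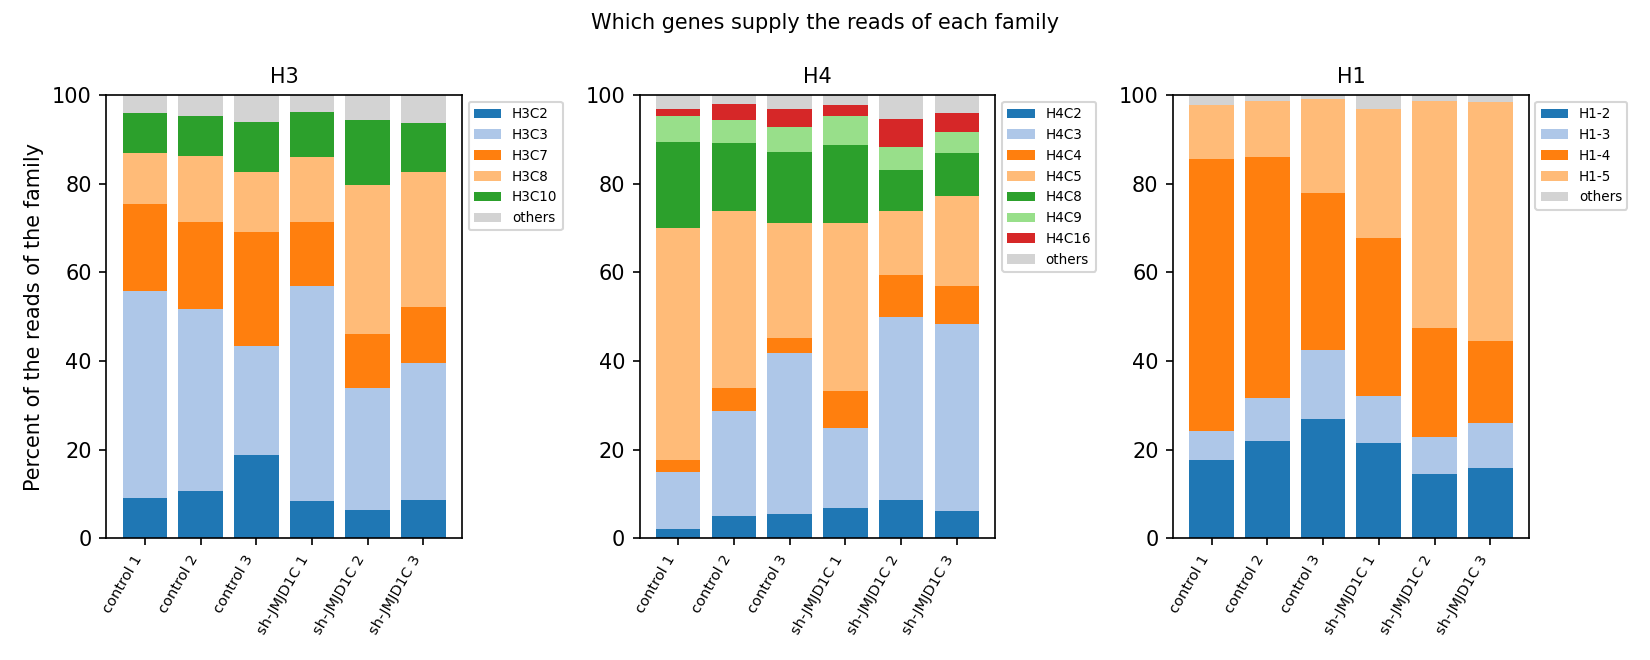
Percent of the reads of each family that came from each gene, by library, with genes under 5% in every library pooled as others. H1-5 grows from 12.3 to 21.1% of the H1 reads in controls to 29.2 to 53.9% in sh-JMJD1C, while the H4 and H3 families stay spread over several genes.

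In the H3 family, H3C7 supplied 19.7, 19.6 and 25.6% of the reads in controls and 14.4, 12.0 and 12.6% in sh-JMJD1C. H3C2 supplied 9.02, 10.7 and 18.9% against 8.46, 6.29 and 8.57%. Shares of both genes were lower in every sh-JMJD1C library, by a small margin for H3C2. H3C8 supplied 11.5, 14.8 and 13.6% against 14.7, 33.6 and 30.4%, with sh-JMJD1C 1 inside the control range. In the H4 family, H4C4 supplied 2.69, 5.07 and 3.30% against 8.45, 9.40 and 8.46%. H4C2 supplied 2.15, 5.07 and 5.40% against 6.77, 8.53 and 6.16%. Both shares were higher in every sh-JMJD1C library. A share can fall while the gene's own level is higher, as it did for H3C7 and H3C2.

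The balance between families was less clear than the difference in each. The ratio of H3 to H4 reads was 0.656, 0.810 and 0.595 in the controls against 1.29, 1.29 and 0.873 in sh-JMJD1C. The groups did not overlap in reads, but they did once reads were divided by the length of the longest transcript (0.775 to 1.29 against 0.803 to 1.93). Without H3C8 the ratio in reads overlapped as well (0.514 to 0.690 against 0.608 to 1.10), whereas without H3C3 and H4C3, the most-read gene of each family in sh-JMJD1C, it did not (0.401 to 0.707 against 0.812 to 1.60). The ratio of H1 to H3 reads was 3.34, 2.26 and 1.88 against 1.25, 0.957 and 1.57, apart in reads and overlapping per kilobase. Per-kilobase ratios rest on annotated lengths, which end at different points in these genes. The ratio of H1 to H4 reads overlapped on both scales, from 1.12 to 2.19 and from 1.24 to 1.61. The H1 median change was the lowest of the 3 families in all 27 fits, the H3 median was above the H4 median in 21, and H4 was above H3 in 5. No test was made of these differences between families.

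Per kilobase of the longest annotated transcript, H1-4 (487), H3C3 (257), H1-2 (229) and H4C3 (227) had the highest control means in scaled RPM per kilobase. In sh-JMJD1C the order was H1-5 (5297), H4C3 (4954), H3C3 (4667) and H1-4 (2277). The libraries of a group differed by more than the gaps between the first 3 of these, so their order is not settled by the data. Annotated transcripts also end at different points, as in H3C3 (411 bases, ending at the stop codon) and H3C8 (2411 bases, 1569 of them after it). Levels per kilobase therefore depend on the annotation and are not a firm comparison between genes.

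Near-identical copies limit some of these values. The H3 genes shared 81.0 to 100% of their coding bases in 78 pairs and the H4 genes 79.2 to 100% in 91 pairs, and the pairs H3C14 with H3C15, H4C11 with H4C12, and H4C14 with H4C15 were identical. Synonymous differences nonetheless set most copies apart. In 25 of the 33 genes at least 97% of the 50-base stretches of the coding sequence occur in no transcript of any other GENCODE 29 gene. In the other 8 (H3C4, H3C13, H3C14, H3C15, H4C11, H4C12, H4C14 and H4C15) under 20% do. The 19 genes that rose on reads all had at least 97.3% of such stretches, and the 4 tested genes that did not pass, H3C13, H3C15, H4C11 and H4C12, had at most 19.6%. These 4 were also the tested genes with fewer than 30 control reads, so shared sequence and low control counts cannot be told apart here. How the authors counted reads that match several copies was not stated, so values of those 8 genes are uncertain, and the part of shared reads in them was not tested. Some genes also overlap in the genome: H3C14 with H4C14 and H3C15 with H4C15 share 230 bases on opposite strands, and H3C12 shares 350 bases with H2AC17 on its own strand.

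**Figure D4:**
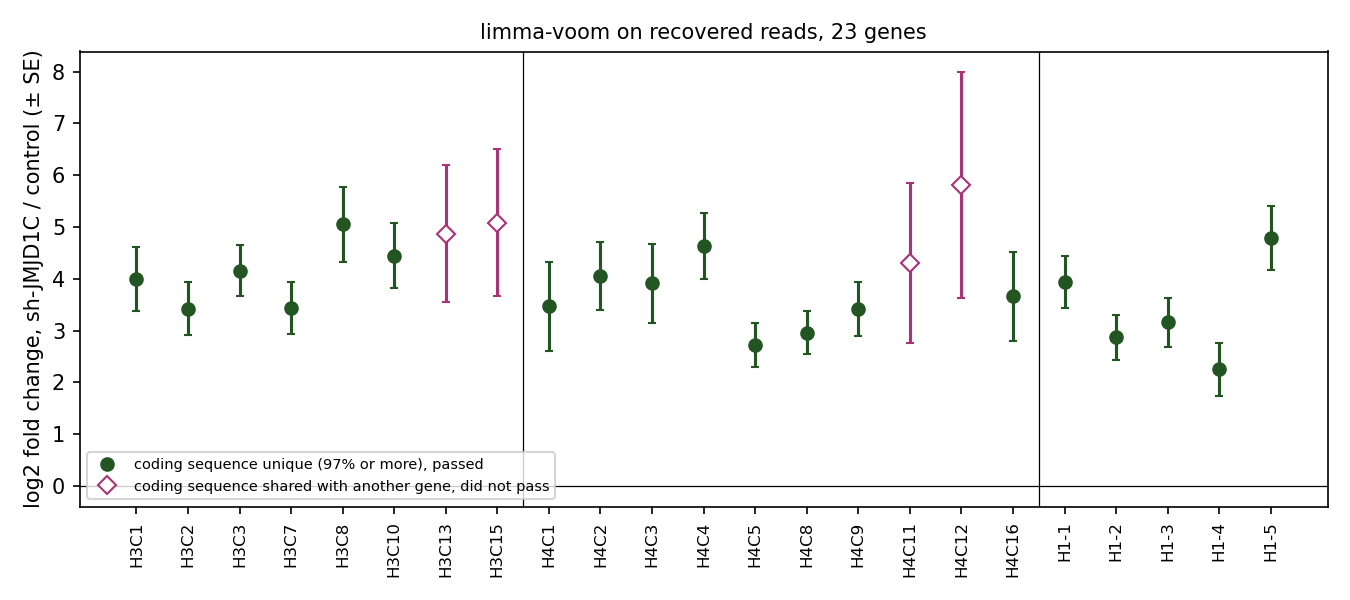
Log2 change with its SE from limma-voom on recovered reads for 23 genes, with circles for coding sequences at least 97% unique in 50-base stretches and open diamonds for shared ones. The 4 shared genes, which also had fewer than 30 control reads each, have SEs of 1.32 to 2.18, and each of the 19 others has one of at most 0.86.

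The genes lie in 4 places in hg38. The larger chromosome 6 cluster (chr6:26017085-26285638) holds 19 of them, and 15 of its 15 genes tested on reads rose, with a median log2 change of 3.47. Of all genes tested on reads, 3.71% rose. The second chromosome 6 cluster (chr6:27138588-27893106) holds 8, of which 3 of 5 tested rose: H3C10, H4C9 and H1-5. The chromosome 1 cluster (chr1:149813271-149861210) holds 5, and 0 of its 2 tested genes passed, H3C13 and H3C15, both with shared coding sequences and each with an unadjusted p under 0.05. H4C16 on chromosome 12 (chr12:14767999-14771131) rose. The tested genes that did not pass, H3C13, H3C15, H4C11 and H4C12, were also those with fewer than 30 control reads. The difference between the clusters was not tested, and the change was not limited to a single cluster.

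The promoters show how the families differ in sequence where the RNA change was shared. The bases before the RefSeq start site (GRCh38.p14) are printed below for the gene with the largest and the smallest change among those that rose in each family, 5′ to 3′ on the gene's strand and ending at the last base before the start. Capitals mark motifs found by letter match on either strand, namely the TATA-box letters TATAAA, the CCAAT box, the H1-type element AAACACA, and GGTCCG from the H4 element that the factor HINFP is known to bind.
H3C8 (chr6:26271414-26271543, minus strand): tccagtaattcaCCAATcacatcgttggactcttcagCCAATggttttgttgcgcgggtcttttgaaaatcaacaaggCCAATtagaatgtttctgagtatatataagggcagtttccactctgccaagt
H3C2 (chr6:26032100-26032229, minus strand): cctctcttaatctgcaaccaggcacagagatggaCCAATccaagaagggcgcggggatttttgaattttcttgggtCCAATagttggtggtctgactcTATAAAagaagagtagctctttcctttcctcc
H4C4 (chr6:26189113-26189242, minus strand): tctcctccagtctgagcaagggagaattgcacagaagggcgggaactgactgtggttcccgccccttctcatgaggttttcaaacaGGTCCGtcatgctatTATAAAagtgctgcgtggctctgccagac
H4C5 (chr6:26204480-26204609, plus strand): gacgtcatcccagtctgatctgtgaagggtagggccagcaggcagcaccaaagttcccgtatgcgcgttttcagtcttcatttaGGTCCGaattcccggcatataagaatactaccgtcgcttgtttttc
H1-5 (chr6:27867589-27867718, minus strand): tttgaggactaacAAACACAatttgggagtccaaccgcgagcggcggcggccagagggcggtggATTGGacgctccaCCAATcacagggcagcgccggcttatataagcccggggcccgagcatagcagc
H1-4 (chr6:26156199-26156328, plus strand): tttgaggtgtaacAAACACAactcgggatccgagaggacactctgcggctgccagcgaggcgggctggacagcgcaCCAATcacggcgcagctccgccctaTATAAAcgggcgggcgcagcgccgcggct

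H1 and H4 promoters each carried a motif that was rare in the other families, and it was present in the genes with the largest and the smallest change alike. A promoter was listed for 29 of the 33 genes (31 promoters), and the 250 bases upstream were searched. H3C4 and H3C6 each had more than 1 promoter, and H3C11, H3C12, H4C1 and H4C3 had no listed promoter. AAACACA was in 5 of 5 H1 promoters, 0 of 13 H3 and 0 of 13 H4 promoters, and in 4.82% of all 35116 promoters. GGTCCG was in 12 of 13 H4 promoters, 1 of 13 H3 promoters (H3C7, where it overlaps a CCAAT) and 0 of 5 H1 promoters, and in 9.43% of all. The H4 promoter without it belongs to H4C7, which had 0 reads, but H4C6, also at 0, has the motif. CCAAT was in 13 of 13 H3, 5 of 5 H1 and 3 of 13 H4 promoters and in 32.0% of all. TATAAA was in 9 of 13 H3, 7 of 13 H4 and 3 of 5 H1 promoters and in 10.7% of all. A letter match is a description and not a measured binding site.

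The 3′ stem-loop, the element that sets these mRNAs apart from polyadenylated ones, was looked for in the reference transcripts. The consensus stem-loop, allowing any base at 3 of its 16 positions, was found in the longest GENCODE 29 transcript of 12 of the 33 genes and in 40 of 58676 genes in all. In 17 members that transcript ends at the stop codon, so the stem-loop lies outside the annotation and outside the length the authors divided by. The H3 and H4 versions differ in their paired bases, as in H3C10 and H4C8, and the DNA-strand letters are printed in capitals over the whole match.
H3C10: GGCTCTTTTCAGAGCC
H4C8: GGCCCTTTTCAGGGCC

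Of 23 genes for factors that make and process histone mRNA tested in limma-voom on reads, 1 rose, 0 fell and 22 did not pass, with a median log2 change of 0.18. Over all genes in that fit, 3.71% rose and 1.81% fell, so the count for this list is near the background. The gene that rose was CCNE1, which encodes the cyclin that drives entry into S phase, at 14.9, 10.6 and 9.04 scaled RPM in controls and 36.9, 45.2 and 63.9 in sh-JMJD1C (2.19, SE 0.44, adjusted p = 0.0234, limma-voom). NPAT, the coactivator of histone gene transcription, was at 23.5, 10.2 and 38.6 against 4.54, 13 and 19.7 (-1.02, SE 0.67, adjusted p = 0.31, limma-voom). SLBP, the stem-loop binding protein, was at 21.3, 16.7 and 47.6 against 16.5, 39.1 and 44.9 (0.14, SE 0.54, adjusted p = 0.873, limma-voom). Levels of both genes overlapped between the groups.

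Among 21 tested genes for H3-H4 and H1 chaperones and chromatin assembly, 1 rose, 1 fell and 19 did not pass, with a median of -0.03, beside 3.71% of all genes higher and 1.81% lower. ASF1B, which hands H3-H4 to the assembly factors, was at 6.40, 42.7 and 31.0 against 127, 159 and 95.5 (2.16, SE 0.51, adjusted p = 0.037, limma-voom). ATRX, a remodeller that works with DAXX to deposit the H3.3 variant, was at 213, 67.5 and 259 against 30.7, 20.6 and 59.0 (-2.18, SE 0.56, adjusted p = 0.0469, limma-voom). Neither passed with the length trend removed, where the adjusted p in limma-voom was 0.0752 and 0.133.

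The replacement variants H1-10, H3-3A and H3-3B did not pass the test. H1-10 was at 139, 86.2 and 62.1 against 77.2, 158 and 89.9 (0.24, SE 0.43, adjusted p = 0.721, limma-voom). The groups overlapped for this linker histone gene. H3-3A, which encodes H3.3, was at 17.1, 33.3 and 47.2 against 58.5, 99.4 and 72.3 (1.13, SE 0.43, adjusted p = 0.108, limma-voom). H3-3B, the other H3.3 gene, was at 147, 95.6 and 186 against 90.8, 138 and 124 (-0.24, SE 0.39, adjusted p = 0.686, limma-voom). H3-3A was higher in every sh-JMJD1C library, and H3-3B overlapped.

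The make-up of the H3 transcript pool differed between the groups. H3-3A and H3-3B together supplied 38.7, 28.0 and 49.0% of the reads of the H3 genes and themselves in controls, and 6.56, 2.17 and 3.35% in sh-JMJD1C. H3-3A and H3-3B have processed copies in the genome, which makes their counts uncertain. These shares are of RNA reads and say nothing of protein.

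**Figure D5:**
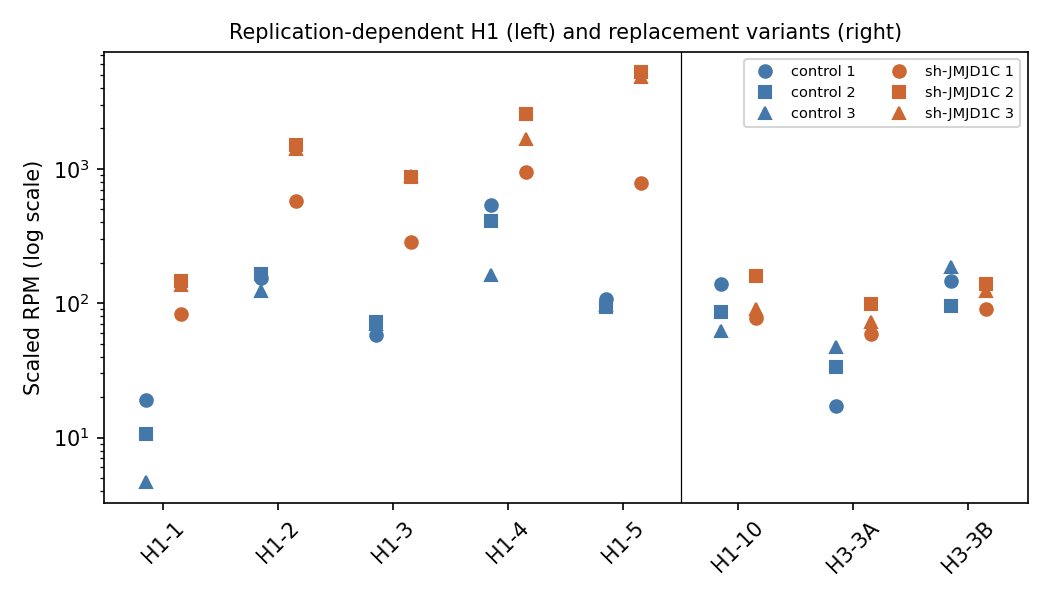
Scaled RPM (log axis) of the 5 replication-dependent H1 genes, left of the line, and of the replacement variants H1-10, H3-3A and H3-3B, right of it, in each library. H1-10 is at 62.1 to 139 in controls and 77.2 to 158 in sh-JMJD1C, while the groups do not overlap for H1-1 to H1-5.

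The replication-dependent H2A and H2B genes, the partners of H3 and H4 in the nucleosome, gave values of the same kind. Of 31 tested on reads, 28 rose in limma-voom and 0 fell, against 3.71% of all genes higher and 1.81% lower. Their median log2 change was 3.28, beside 19 of 23 and a median of 3.94 for the H3, H4 and H1 genes together. In limma on log2 FPKM, 6 of 32 H2A and H2B genes passed, all higher, beside 0 of 26 and against 0.0598% of all genes higher. The difference between the 2 sets was not tested.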

How the data were processed

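The authors deposited FPKM (fragments scaled to gene length and library total) for 58174 Ensembl genes in each of 6 libraries. Per the file headers, the columns are computed on growing portions of the reads, and only the full library was used. The submitters' processing notes name Bowtie 0.12.2 and hg38. Neither the counting tool nor strand handling was stated. Low FPKM are whole multiples of 1 read, so whole reads were recovered from FPKM, gene length (the summed length of all GENCODE 29 transcripts for 93.9% of detected genes and all 29 detected members) and library total. A length was accepted only where it made every value of the gene whole within 0.05 read. That 100.0% of recovered values under 1000 reads were whole therefore follows from this rule and is no check of the recovery. As a self-check, the length was withheld for 2000 of the real genes whose annotated length had fitted, and it was returned exactly for 99.8%.

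Symbols were looked up by gene ID, and 2 members (H3C2 and H3C3) were matched through an older name. FPKM were scaled by median ratios, log2(value + 0.5) was fitted for genes with a mean of at least 0.5 with limma 3.58.1 (R 4.3.3, trend, group alone, two-sided, Benjamini-Hochberg at 0.05), and fold changes on this scale understate those of low genes. Limma-voom was run on recovered reads for genes with at least 60. Alternatives were other pseudocounts, filters and scalings, array weights, a length trend removed (lowess span 0.3), a replicate block and each library left out. Counting intervals of read ratios are exact at 95%, and they and the floor of 3 counts cover counting error only. The named genes are all detected members, with full values where the mean was 20 reads or more, and, from each list, genes past the threshold and a few preset ones. Members and lists were chosen with earlier results of these data known. Sequences come from RefSeq promoters and GENCODE 29 transcripts. Of the listed genes, 1 is not reported here.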

Additional observations from a re-analysis of the deposited data

How the results depend on the processing

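The number of the 33 genes past an adjusted p of 0.05 was 0 in limma on log2 FPKM, where it was also 0 with a pseudocount of 1, no filter, quantile scaling, a replicate block, or both libraries numbered 1 left out. It was 13 with array weights, 2 on the deposited FPKM unscaled, 22 with protein-coding genes only and 1 with a pseudocount of 0.1, where 118, 79, 911 and 84 genes passed in all, against 34. Leaving out 1 library at a time gave 0 to 23, with 23 (of 692 genes in all) only without sh-JMJD1C 1 and 0 in the other 5 fits. On reads in limma-voom it was 19 (of 656 genes in all), with 17 (of 406) after removing the length trend, 21 (of 1195) with library totals, 23 (of 948) without both libraries numbered 1, and, with 1 library left out, 9 to 23 (15 of 39 without control 1, 19 of 1187 without control 2, 9 of 34 without control 3, 23 of 2305 without sh-JMJD1C 1, 11 of 31 without sh-JMJD1C 2 and 15 of 99 without sh-JMJD1C 3). All calls among the 33 genes were higher, whereas the counts of genes in all take both directions. Genes that rose made up 0.332% of all tested with array weights and 0.114% unscaled. With protein-coding genes only it was 5.34%, and with a pseudocount of 0.1 it was 0.169%. On reads with library totals 2.62% of all genes rose. The cause of the differences between settings was not tested. The H1 median was 1.72 with quantile scaling, against 3.12, and family medians over all settings ran from 2.96 to 4.91 (H3), 2.96 to 4.75 (H4) and 1.72 to 3.69 (H1). Unscaled FPKM and library totals moved the median of all genes to -0.38 and -0.52. H3C12 changed sign, to -0.08 with array weights, -0.18 unscaled, -0.01 with a pseudocount of 1, -0.78 without both libraries numbered 1 and -0.72 to 0.52 with 1 library left out, where only leaving out control 1 gave a negative value. JMJD1C, at -1.82, passed with protein-coding genes only (-1.82) and on reads (-2.49, -1.75 with the length trend removed, -2.92 with library totals, -2.83 without both libraries numbered 1, and -2.81 without control 2 and -2.91 without sh-JMJD1C 1, in a range of -2.91 to -1.92 with 1 library left out, where it did not pass without any of the other 4). Same-numbered libraries correlated at 0.009, 0.14 and 0.22 in their deviations from group means. Control 2 and control 3 each correlated best with the library of the same number, and control 1 with sh-JMJD1C 3 (0.027). The labels name no pairing, and the numbers were not taken to pair the libraries. A replicate block on reads gave 23 of the genes, of 4260 in all, and -2.48 for JMJD1C. In that fit 35.9% of all 11877 genes passed and 19.8% rose. Depth limits the 10 genes with under 60 reads, for which no test on reads was made.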
